A study of Homo sapiens with 4 samples.

Results

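The genes described here are 10 transcripts of the negative feedback and output of the ERK pathway: the dual-specificity phosphatases DUSP1, DUSP4, DUSP5 and DUSP6, the Sprouty proteins SPRY1, SPRY2 and SPRY4 with their relative SPRED1, and the ETS transcription factors ETV4 and ETV5. They were chosen by name, with earlier results of these data known. Every probe set annotated to 1 of them was taken, which gave 24 of the 54613 probe sets and 10 of the 19775 genes measured. The series examined SH-SY5Y cells, a clonal human neuroblastoma line of the sympathetic lineage, in 2 samples with small interfering RNA against TSPAN8 and in 2 transfection controls. The RNA was delivered with the self-delivering Accell system and both groups were kept for 72 h in medium with fetal bovine serum, which itself contains growth factors. The labels do not describe the control RNA, and they do not tell separate cultures from repeated samples of 1 culture, so the p-values rest on a spread that may be technical.

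Growth factor receptors activate RAS, RAF, MEK and ERK in turn, and active ERK then induces genes that restrain the same chain. DUSP phosphatases remove the activating phosphates from ERK and related kinases, Sprouty and SPRED proteins act between the receptor and RAF, and ETV4 and ETV5 are transcription factors made where the pathway is active. In neuroblastoma the receptor tyrosine kinase ALK is a frequent source of ERK activity, and SH-SY5Y cells carry an activating ALK mutation, so these transcripts are commonly read as a measure of pathway output. TSPAN8 encodes a tetraspanin, a membrane protein that organises integrins and receptors at the cell surface.

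RefSeq (GRCh38.p14) promoter windows were found for 6 of the 10 genes, and the 250 bases before the start site are shown for DUSP6, SPRY1 and DUSP1, chosen after their values were seen because DUSP6 was below control at every probe set, SPRY1 was above it at every probe set, and DUSP1 differed little. Capitals mark the ETS core, GGAA on either strand, in DUSP6 (chr12:89352502-89352751, minus strand) and SPRY1 (chr4:123396545-123396794, plus strand). In DUSP1 (chr5:172771196-172771445, minus strand) they mark the cyclic AMP response element TGACGTCA and its half-site TGACG on either strand.
DUSP6: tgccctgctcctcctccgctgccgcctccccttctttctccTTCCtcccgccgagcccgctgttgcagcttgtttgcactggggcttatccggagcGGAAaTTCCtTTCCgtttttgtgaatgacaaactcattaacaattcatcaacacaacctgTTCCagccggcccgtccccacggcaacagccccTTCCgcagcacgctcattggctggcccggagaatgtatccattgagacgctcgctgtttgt
SPRY1: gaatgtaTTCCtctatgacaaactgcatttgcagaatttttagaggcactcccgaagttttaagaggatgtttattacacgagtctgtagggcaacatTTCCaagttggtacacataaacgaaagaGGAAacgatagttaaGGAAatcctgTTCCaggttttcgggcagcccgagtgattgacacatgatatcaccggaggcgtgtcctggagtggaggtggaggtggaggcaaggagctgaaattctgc
DUSP1: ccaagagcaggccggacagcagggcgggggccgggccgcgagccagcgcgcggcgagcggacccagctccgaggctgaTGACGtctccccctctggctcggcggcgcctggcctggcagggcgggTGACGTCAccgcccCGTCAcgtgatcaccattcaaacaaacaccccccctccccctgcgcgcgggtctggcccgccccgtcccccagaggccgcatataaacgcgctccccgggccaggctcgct

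The DUSP6 window held 6 matches to the ETS core and the SPRY1 window 5, while the DUSP1 window held 0. This short core is found in 92.7% of the 35116 promoter windows of the same length, with a median of 3 matches, so its presence singles out no gene. The DUSP1 window held 1 full cyclic AMP response element, starting 125 bases before the start site, and 4 half-sites that include those within the full element. The full element is in 1.65% of all windows and the half-site in 21.2%. Over all 9 windows of the 6 genes, the longer ETS site CCGGAAG (8.52% of all windows) was found in 1, at the other start of SPRY1, and neither the AP-1 site TGANTCA (6.57%) nor the CArG box bound by serum response factor (1.16%) was found in any member window. These matches describe letters only.

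TSPAN8 itself fell, with log2 values of 6.25 and 6.35 in knockdown against 7.52 and 7.62 in control cells, a difference of -1.27 ± 0.062 (SE; limma, adjusted p = 0.0026), and no other probe set of the 54613 had an adjusted p under 0.05, the threshold used here (1 passed, 0.00183%). Of 11 measured noradrenergic markers, which belong to the lineage of this line, 10 were above the array median. Below control were 10 of the 11, beside 55.6% of all genes. At an unadjusted p under 0.05 (limma) 4 were lower and 0 higher, beside 5.57% and 2.39% of all genes. The exception on both of the first counts was TH, below the array median and at 0.12 above control. Summed linear signals of the list were 29568.1 and 30736.5 on the knockdown arrays against 32423.3 and 32539.5 on the controls. Fibroblast and mesenchymal markers were above control at 10 of 12 genes, beside 8787 of all 19775 genes. Of the 12, 8 were above the array median, and 1 was higher and 0 lower at that unadjusted p. Their summed linear signal was 20603.5 on knockdown array 1, above the 17426.2 and 16560.3 of the controls, and 16628.2 on knockdown array 2, between them. The brightest genes dominate such a sum. Their mean log2 level was higher on both knockdown arrays (8.48 and 8.75) than on both controls (8.40 and 8.46). Both knockdown arrays lay above both controls at 7 of the 12 genes (58.3%), beside 14.3% of all genes. Of 5 Schwann cell and melanocyte markers, 3 were above the array median and 4 above control. The part of these shifts in the values below was not tested. Since these are bulk samples, fewer cells of a type and less RNA per cell cannot be told apart.

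None of the 24 probe sets passed the threshold over all probe sets (limma, adjusted p from 0.60 to 0.98), so no ERK feedback gene is called changed. At an unadjusted p under 0.05 there were 5 lower and 0 higher, or 20.8% lower beside 4.12% of all probe sets lower and 3.72% higher. After a second quantile normalization the split was 3 lower and 2 higher, the latter being SPRY1. There was 1 lower without control array 1, 3 lower without control array 2, and 4 lower beside 3 higher without knockdown array 2. The 5 belong to 3 genes, DUSP4, DUSP6 and ETV5, and probe sets of 1 gene read the same transcripts, so they do not count as independent. With 1 probe set per gene, 2 of the 10 genes were lower and 0 higher, beside 5.57% and 2.39% of all genes. Of the 24 member probe sets 22 were above the array median, unlike probe sets in general. Signal in knockdown cells ran from 84.5% to 110% of control, background included, and the 95% confidence intervals of single probe sets reached from 75.7% to 123%. Differences as large as that of TSPAN8 lie outside these intervals at every probe set.

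**Figure D1:**
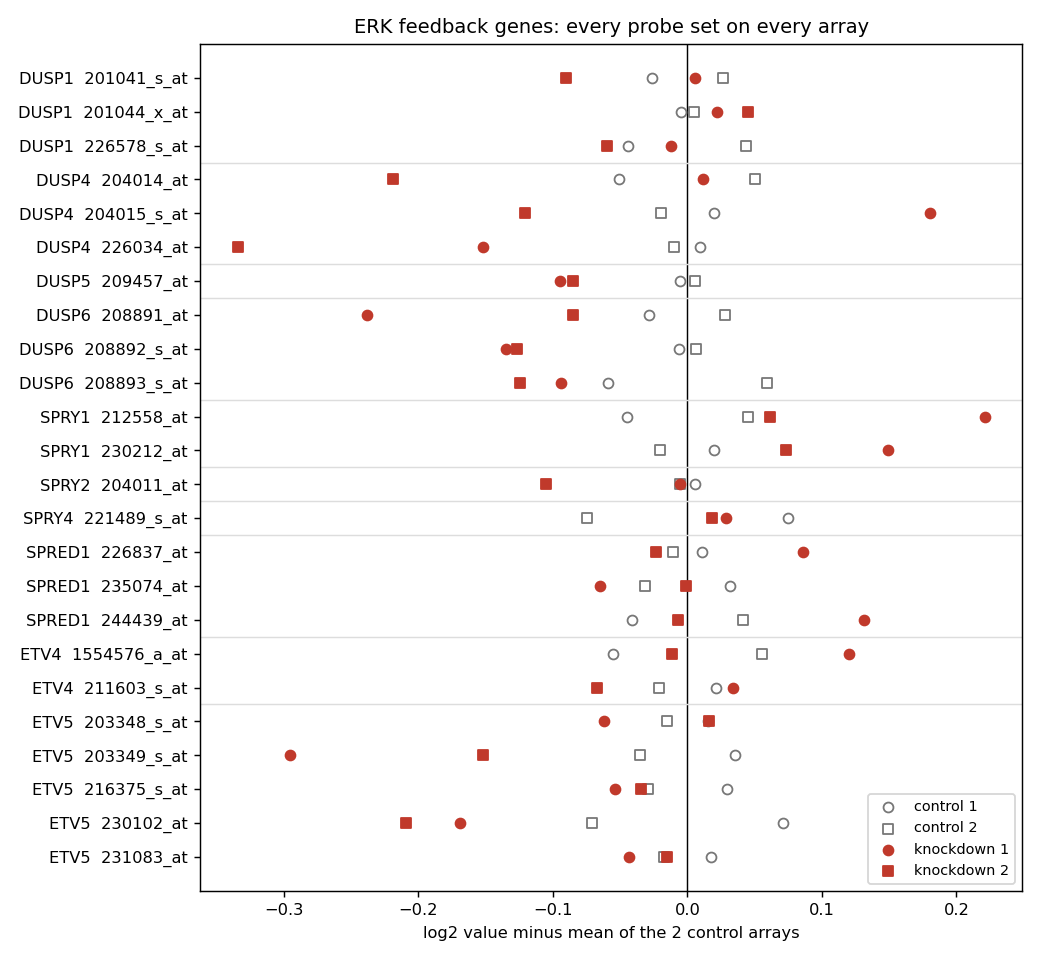
Log2 value of each of the 24 probe sets on each array, minus the mean of the 2 control arrays (horizontal axis, log2 units). Filled symbols are knockdown arrays and open symbols control arrays, and the vertical line is the control mean. Both knockdown arrays lie left of both controls at the 3 probe sets of DUSP6 and right of them at the 2 of SPRY1.

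DUSP6, a cytoplasmic phosphatase that acts almost wholly on ERK, was below control at each of its 3 probe sets. Its brightest probe set, 208891_at, read 11.45 and 11.60 in knockdown cells and 11.66 and 11.72 in control cells. Both knockdown values were below both controls, by -0.16 ± 0.065 (SE; limma, adjusted p = 0.63) on the log2 scale, which is 89.4% of the control signal.

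The probe set 208892_s_at gave the closest replicates of the gene, 10.98 and 10.99 in knockdown against 11.11 and 11.12 in control cells. The difference there was -0.13 ± 0.051 (SE; limma, adjusted p = 0.62), against gaps of 0.0084 and 0.012 between the arrays of a group. A difference larger than both gaps was found at 8 of the 24 member probe sets (33.3%), beside 25.6% of all probe sets. At 208893_s_at the values were 10.22 and 10.19 against 10.26 and 10.38, a difference of -0.11 that is smaller than the gap of 0.12 between the controls. The groups did not overlap at any of the 3, where 19.8% of all probe sets had knockdown arrays wholly below the controls.

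DUSP5, a nuclear phosphatase specific for ERK, is read by 1 probe set. It stood at 8.09 and 8.10 in knockdown cells and at 8.18 and 8.19 in control cells. The arrays differed by 0.0099 and 0.011 within the groups, and the groups by -0.090 ± 0.051 (SE; limma, adjusted p = 0.70), or 94.0% of the control signal. The groups did not overlap.

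DUSP4, a nuclear phosphatase of ERK and JNK, gave different answers at its 3 probe sets. At 226034_at the knockdown arrays read 10.28 and 10.09 and the controls 10.44 and 10.42, the lowest difference among the members at -0.24 ± 0.069 (SE; limma, adjusted p = 0.60). At the brightest, 204014_at, the values were 11.93 and 11.70 against 11.87 and 11.97. Here knockdown array 1 lay among the controls and only knockdown array 2 below them.

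At 204015_s_at the knockdown arrays were on both sides of the controls, at 10.67 and 10.37 against 10.51 and 10.47, with a mean difference of 0.030. Knockdown array 2 was the lower of the knockdown pair at all 3 DUSP4 probe sets, by 0.23, 0.30 and 0.18, each more than the gap between the control arrays (0.10, 0.039 and 0.019). Only at 226034_at was the difference between the groups larger than the gap between the knockdown arrays.

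DUSP1, an immediate early nuclear phosphatase that also acts on p38 and JNK, did not separate the groups at its brightest probe set. This set, 201041_s_at, read 9.38 and 9.28 in knockdown and 9.35 and 9.40 in control cells, and the groups overlapped with a difference of -0.043 (95% interval -0.18 to 0.091). The other probe sets, 201044_x_at and 226578_s_at, were dimmer, where the arrays' medians ran from 6.58 to 6.61, and differed by 0.033 and -0.036. The former had both knockdown arrays above the controls, at 6.53 and 6.56 against 6.51 and 6.52, while 226578_s_at overlapped, at 6.99 and 6.94 against 6.96 and 7.05.

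**Figure D2:**
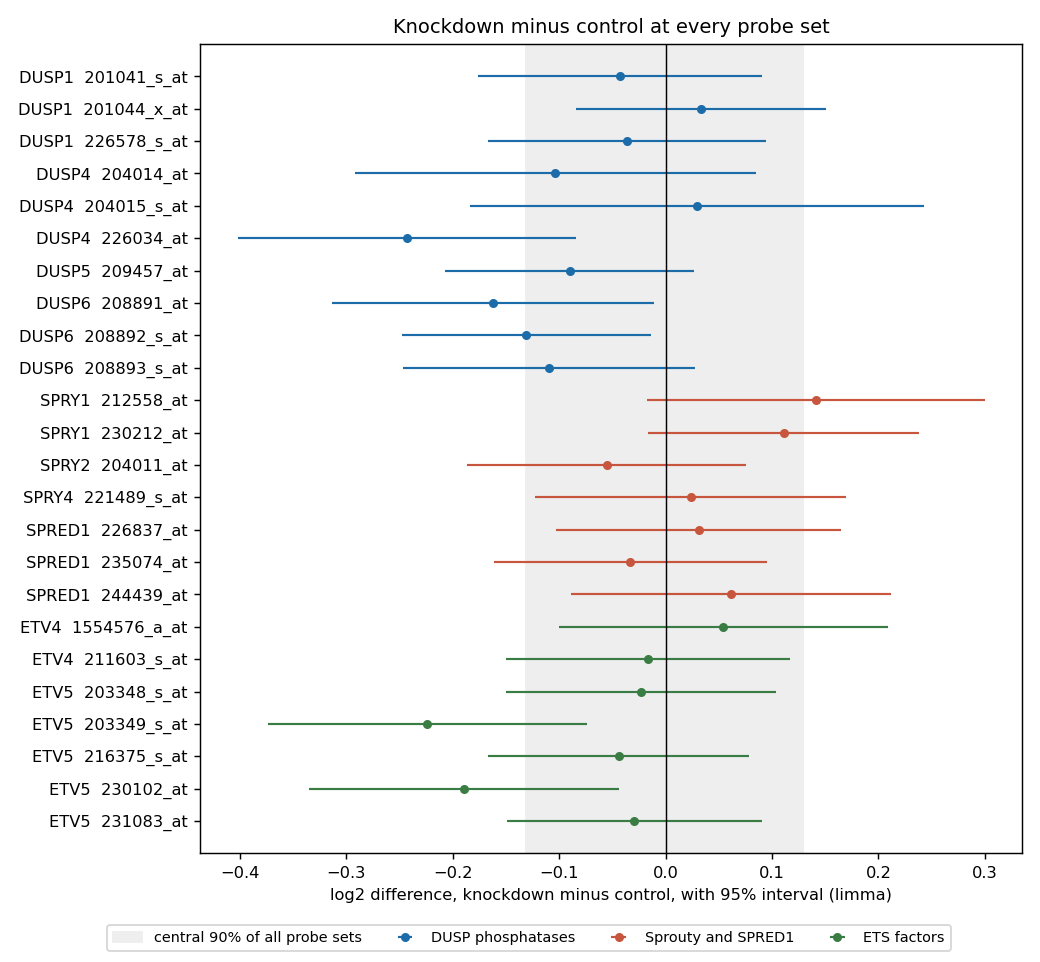
Log2 difference, knockdown minus control, at each probe set (points) with limma's 95% confidence interval (lines), coloured by role; the grey band holds the central 90% of all probe sets, from -0.13 to 0.13. Intervals of 5 probe sets, of DUSP4, DUSP6 and ETV5, lie wholly below 0 before adjustment.

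ETV5, an ETS factor of the PEA3 group, was below control at all 5 of its probe sets, though by unequal amounts. The brightest, 203349_s_at, read 9.52 and 9.66 in knockdown cells and 9.85 and 9.78 in control cells. Both knockdown values lay below the controls, by -0.22 ± 0.065 (SE; limma, adjusted p = 0.60), or 85.6% of the control signal.

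At 230102_at the values were 8.55 and 8.51 against 8.79 and 8.64, again without overlap, and the difference was -0.19 ± 0.063 (SE; limma, adjusted p = 0.60). The groups were also apart at 216375_s_at, but only narrowly, with 7.43 and 7.45 in knockdown against 7.52 and 7.46 in control cells, a difference of -0.044. The remaining 2 overlapped, with differences of -0.029 at 231083_at, which lies below the array median, and -0.023 at 203348_s_at. The last of these read 9.58 and 9.66 in knockdown against 9.66 and 9.63 in control cells. After a second quantile normalization it was at 0.0098, the only member probe set whose sign turned under either rescaling.

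ETV4, its close relative, showed no separation. The probe set 211603_s_at read 7.62 and 7.52 in knockdown and 7.61 and 7.57 in control cells, a difference of -0.017. The second, 1554576_a_at, read 7.47 and 7.34 against 7.30 and 7.41, a difference of 0.054 of the opposite sign. The 95% interval of the former ran from -0.15 to 0.12. Whether ETV4 and ETV5 differ from each other was not tested.

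SPRY1, which restrains receptor signalling upstream of RAF, was the only one of the 10 genes above control at more than 1 probe set without overlap. At 212558_at the knockdown arrays stood at 10.05 and 9.89 and the controls at 9.79 and 9.88, so knockdown array 2 exceeded the higher control only narrowly. The difference was 0.14 ± 0.069 (SE; limma, adjusted p = 0.66), or 110% of the control signal. At 230212_at the values were 7.99 and 7.91 against 7.86 and 7.82, and the difference was 0.11 ± 0.055 (SE; limma, adjusted p = 0.67). Knockdown arrays were wholly above the controls at 17.7% of all probe sets.

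The other Sprouty genes showed no such separation. SPRY2, the member most often linked to receptor degradation, read 11.89 and 11.79 in knockdown and 11.90 and 11.89 in control cells, a difference of -0.055, with knockdown array 1 level with the controls and knockdown array 2 below them. SPRY4 read 8.27 and 8.26 against 8.32 and 8.17, so both knockdown values lay between the controls, with a difference of 0.024. Each of these is read by 1 probe set.

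SPRED1, which brings the RAS inactivator neurofibromin to the membrane, had 3 probe sets with overlapping groups. The brightest, 226837_at, stood at 9.53 and 9.42 in knockdown against 9.45 and 9.43 in control cells, a difference of 0.031. At 235074_at the values were 8.05 and 8.12 against 8.15 and 8.09 (-0.033), and at 244439_at, near the array median, 6.72 and 6.59 against 6.55 and 6.63 (0.062). The 95% interval at the brightest ran from -0.10 to 0.17.

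By role, 8 of 10 phosphatase probe sets and 6 of 7 ETS factor probe sets were below control, against 2 of 7 for Sprouty and SPRED1, where 27325 of all 54613 probe sets were. Their median differences were -0.097, -0.029 and 0.031. Probe sets of 1 gene do not count as independent here either. All 5 probe sets of ETV5 were among the 6 ETS factor sets below control, while ETV4 had 1 below and 1 above. With 1 probe set per gene, 7 of the 10 genes were below control with a median of -0.049, beside 10988 of all 19775 genes and a median of -0.0094. The groups' arrays did not overlap at 11 of 24 probe sets (45.8%), 8 lower and 3 higher, beside 37.5% of all.

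The knockdown arrays did not deviate alike. Over the 10 genes the median deviation from the control mean was 0.0086 on knockdown array 1 and -0.085 on knockdown array 2, against 0.00023 and -0.00023 on the controls. On knockdown array 1, ETV5 (-0.30) and DUSP6 (-0.24) were lowest and SPRY1 (0.22) highest. On knockdown array 2, DUSP4 (-0.22) and ETV5 (-0.15) were lowest and SPRY1 (0.061) highest. DUSP5, DUSP6, ETV5 and SPRY1 kept their direction with any array left out, which follows from their groups not overlapping at the brightest probe set. Such separation held for 4 of the 10 genes (40%), beside 38.5% of all genes. DUSP1, DUSP4, ETV4, SPRY4 and SPRED1 turned with at least 1 array removed, and SPRY2 was at -0.0054 without knockdown array 2. ETV5 alone passed in such a fit, at -0.30 without knockdown array 2 (limma, adjusted p = 0.032), where 1026 probe sets (1.88%) passed and the remaining knockdown array is assumed to vary like the controls.

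**Figure D3:**
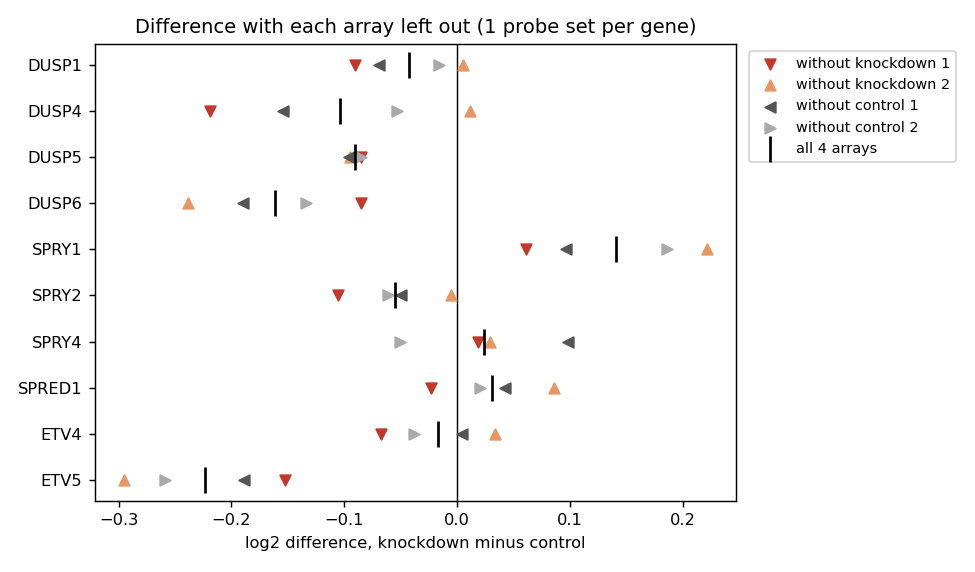
Log2 difference, knockdown minus control, of each gene at its brightest probe set with all 4 arrays (black bar) and with each array left out (symbols). DUSP6 ranges from -0.24 to -0.085 and SPRY1 from 0.061 to 0.22, while DUSP4 ranges from -0.22 to 0.012.

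Genes around the feedback loop were taken from 5 lists, and 0 of their members passed over all probe sets (limma). Among all genes only TSPAN8 passed (0.00506%). At an unadjusted p under 0.05, 5.57% of all genes were lower and 2.39% higher. Of 15 measured genes of the cascade from adaptors to ERK, 2 were lower and 1 higher at that level, with a list median of -0.011. HRAS, a RAS protein, stood at -0.17 ± 0.056 (SE) and MAP2K2, which encodes the ERK kinase MEK2, at -0.15 ± 0.052 (SE), both without overlap, and all 3 probe sets of MAP2K2 were below control. ARAF, a RAF kinase, was at 0.18 ± 0.065 (SE), but its other probe set was at -0.12.

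Other feedback inhibitors and MAP kinase phosphatases, 17 genes, had 2 lower and 0 higher and a median of -0.012. SPRED2, a relative of SPRED1, read 10.45 and 10.47 in knockdown cells and 10.62 and 10.57 in control cells, a difference of -0.14 ± 0.052 (SE; limma, adjusted p = 0.62), and its 3 probe sets were all below control. RASA2, a RAS inactivator, was at -0.14, with 2 of 3 probe sets above control by at most 0.0015. IL17RD, also called SEF, an inhibitor of fibroblast growth factor signalling, was at -0.11 and at -0.0087 at its other probe set.

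Among 19 other ERK-responsive transcripts 1 was lower and 0 higher at that level, with a list median of 0.00. That gene was PHLDA1, a growth factor-induced gene often read beside DUSP6 and SPRY genes, at 9.79 and 9.99 in knockdown cells and 10.26 and 10.30 in control cells. The difference was -0.39 ± 0.072 (SE; limma, adjusted p = 0.58), and all 6 of its probe sets were below control, from -0.42 to -0.059. MYC (-0.16) and the immediate early gene IER2 (-0.10) followed by p, each with both knockdown arrays below the controls. MYC ranged from -0.26 to -0.050 with 1 array left out.

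Of 18 receptors upstream of ERK 1 was lower and 0 higher, and the list median was -0.0083. ALK, the receptor mutated in this line, read 9.92 and 10.13 in knockdown cells and 10.15 and 10.14 in control cells, a difference of -0.12 ± 0.074 (SE; limma, adjusted p = 0.72) that was -0.015 without knockdown array 1. ERBB4 was at -0.26 near the array median, with 1 of 4 probe sets above control. NTRK2, the receptor of brain-derived neurotrophic factor, was at 0.48 ± 0.26 (SE) with overlapping arrays, at 6.67 and 7.54 against 6.37 and 6.89. It ranged from 0.043 to 0.91 with 1 array left out, and 2 of its 6 probe sets were below control.

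Of the JNK and p38 kinases, on which DUSP1 also acts, and their activators, 8 genes were measured, with 1 lower, 0 higher and a median of -0.0079. MAPK11, a p38 kinase, was at -0.24 ± 0.062 (SE; limma, adjusted p = 0.60), with all 3 probe sets below control. MAP2K4 was at -0.083 and MAP2K6 at 0.12, and the probe sets of each disagreed in sign.

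**Figure D4:**
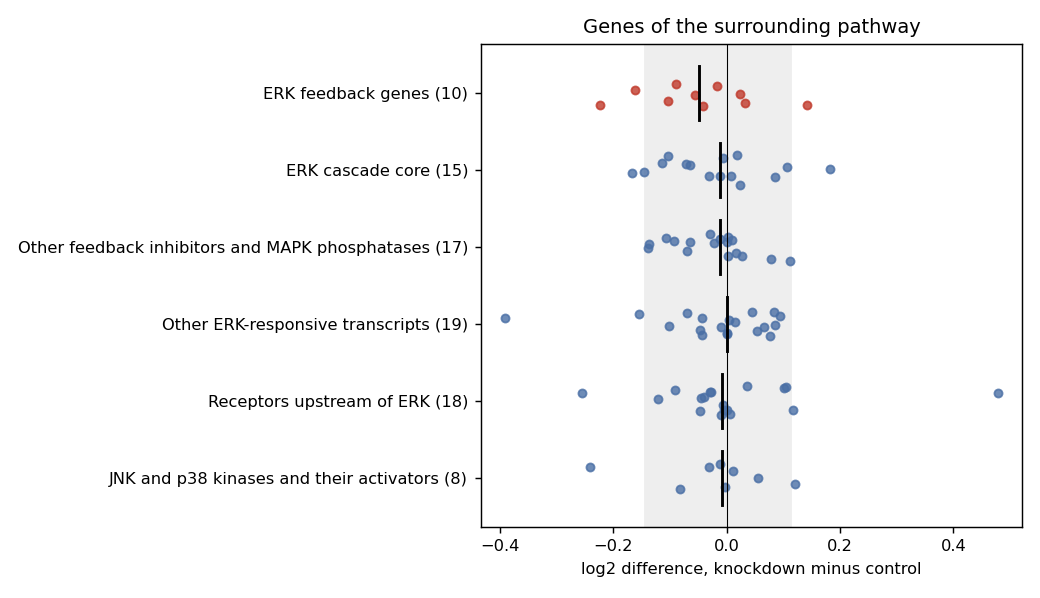
Log2 difference, knockdown minus control, of each gene at its brightest probe set (points, spread vertically for visibility) in the ERK feedback genes and 5 surrounding lists, with list medians (black bars). The grey band holds the central 90% of all genes, from -0.14 to 0.11; PHLDA1 at -0.39 and NTRK2 at 0.48 lie farthest out.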

How the data were processed

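The total RNA of 4 SH-SY5Y samples was hybridised to 3′-labelled oligonucleotide arrays, 1 array each. The values are log2 values, made by the authors with RMA in R 3.0.1, per the submitters' processing notes, which give no settings. RMA corrects background, equalises the arrays' distributions and summarises the probes of each set, and it compresses differences of dim transcripts. No scan dates or detection calls were at hand, so batches and background were not examined. Of 54675 probe sets, 62 AFFX controls were left out. Genes were named by the platform annotation (41091 probe sets with 1 gene, 1801 with several, 11721 unlisted), and the probe set with the highest mean represented a gene. Knockdown minus control was fitted with limma 3.58.1 (R 4.3.3, lmFit and eBayes) over 54613 probe sets, with Benjamini-Hochberg adjustment over all of them and a threshold of 0.05, two-sided. The fit was tested on simulated data. The members, the lists and the alternatives were chosen with earlier results of these data known. Named genes were all members, TSPAN8 and the 3 genes of smallest p in each pathway list. The alternatives were filters on dim probe sets and on those named _s_at, _x_at or _a_at, 2 rescalings and another variance model. A gene mean, the replicate block and leaving out each array were also used. The number of arrays limits the precision.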

Additional observations from a re-analysis of the deposited data

How the results depend on the processing

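No member probe set passed under any alternative except leave-one-out, where the count ran from 0 to 1, the 1 being ETV5. The count of all probe sets ran from 1 to 1026 with 1 array left out. Member probe sets at an unadjusted p under 0.05 numbered 5, from 1 to 7 with 1 array left out (1 without control replicate 1, 3 without control replicate 2, 7 without knockdown replicate 2) and 3 among the 12 left without the _s_at, _x_at and _a_at sets, where fewer probe sets were tested. After a second quantile normalization the 5 were 3 lower and 2 higher. The median over the 10 genes ran from -0.085 to 0.0086 with 1 array left out. Signs turned without knockdown replicate 2 for DUSP1 (0.0053), DUSP4 (0.012) and ETV4 (0.034), without knockdown replicate 1 for SPRED1 (-0.023), without control replicate 1 for ETV4 (0.0045), without control replicate 2 for SPRY4 (-0.051), and for ETV4 as a gene mean (0.019); the cause was not tested. With 1 array left out DUSP1 ran from -0.091 to 0.0053, DUSP4 from -0.22 to 0.012, SPRY4 from -0.051 to 0.098, SPRED1 from -0.023 to 0.086 and ETV4 from -0.067 to 0.034. With the replicate number as a block, 0 probe sets passed and TSPAN8 was at -1.27 (limma, adjusted p = 0.16), with fewer residual degrees of freedom. No label pairs the samples, and equal numbers correlated at 0.051 in their deviations.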
